A study of Mus musculus with 12 samples.

Results

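The effect of host ST2 was measured by comparing colon tumours of 6 St2-/- hosts with those of 6 wild-type (WT) hosts, with the genotype of the transplanted marrow held as a covariate. Every one of the 12 RNA-seq libraries of the study enters this comparison. All mice were on the Balb/c background and were lethally irradiated with 2 doses of 5 Gy. They were then given WT or St2-/- bone marrow and left for 8 weeks, before 6 weekly injections of azoxymethane (AOM, 10 mg/kg), a carcinogen that produces tumours in the colon. Each tumour was taken 13 or 14 weeks after the last injection. The groups are written as marrow_to_host, with KO for St2-/-. WT hosts were WT_to_WT and St2KO_to_WT, and St2-/- hosts were WT_to_St2KO and St2KO_to_St2KO, with 3 biological replicates each. The host contributes the epithelium and stroma and any blood cells that survived irradiation, and the labels do not say how complete the marrow replacement was. The sources used here give neither the ages of the mice nor the part of the gene that the St2 allele lacks.

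ST2, the product of Il1rl1, is the receptor for interleukin-33 (IL-33), a cytokine kept in the nucleus of epithelial and stromal cells and released when they are damaged. Binding of IL-33 brings ST2 together with the accessory protein IL1RAP, and the pair signals through the adaptor MyD88 and the IRAK kinases to NF-kB. Mast cells, group 2 innate lymphoid cells, regulatory T cells and some stromal cells are known to carry ST2.

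Libraries held 10293818 to 12962496 reads counted for genes. The sample numbers in the labels have 5 digits for every WT host and 3 digits for every St2-/- host. What they number is not stated, and whatever they mark cannot be told apart from host genotype. The only female, WT_to_St2KO replicate 3, was a St2-/- host. Reads that fell outside annotated genes numbered 0.2 to 0.246 per gene read in WT hosts and 0.228 to 0.343 in St2-/- hosts, highest in WT_to_St2KO replicates 3 and 2. Epithelial markers of the colon were detected in all libraries, and the summed level of the 8 markers was 6844 to 15300 CPM (gene reads scaled to library size) in WT hosts and 4074 to 10214 CPM in St2-/- hosts. Smooth muscle genes were unevenly spread. The 4 muscle markers summed to 55 to 1485 CPM in WT hosts and 46.2 to 1728 CPM in St2-/- hosts.

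Between hosts, 216 of 15060 genes tested were called, which is 1.43%, at a Benjamini-Hochberg adjusted p under 0.05 in the quasi-likelihood test of edgeR. In the same test 2985 of the 15060 had an unadjusted p under 0.05. Genes of the interferon and major histocompatibility complex (MHC) families made up 101 of the 173 that fell (1.15% of all genes tested) and none of the 43 that rose (0.286%). In these families 47% of the 215 genes tested fell and 0% rose (0 genes with an unadjusted p under 0.05, and 0 called higher by DESeq2 or limma-voom). Ido1, which encodes a tryptophan-degrading enzyme induced by interferon-gamma, fell by 6.10 on the log2 scale (SE 0.51). B2m, the light chain of MHC class I, fell by 1.91 (SE 0.28). The remaining 115 calls, 0.775% of the 14845 genes tested outside these families, are described here. Of them 43 rose (0.29%) and 72 fell (0.485%) in St2-/- hosts. Family membership was read from symbols, so 11 predicted genes among the 72 count as outside although some lie inside clusters of family genes. For named genes too, outside means only that the symbol was not listed. Whether such a gene responds to interferon was not tested.

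The genes that rose and the genes that fell outside the families differed in the size of the change. The median log2 fold change was 0.62 among the 43 that rose, and 30 of these rose by less than 2-fold. It was -1.19 among the 72 that fell, of which 41 fell at least 2-fold and 20 at least 4-fold. CPM did not overlap between the 6 WT and the 6 St2-/- hosts for 35 of the genes that rose and 57 of those that fell, against 2.68% of all genes tested. Calling genes on these same libraries favours such a separation, so it is no separate support. The number of calls depended on single libraries. Against 43 called higher and 72 called lower in all libraries, 13 and 32 were called without WT_to_WT replicate 1, 19 and 77 without replicate 2 and 17 and 35 without replicate 3 of that group. Without St2KO_to_WT replicates 1 and 2 there were 21 and 45, and 8 and 27. Without WT_to_St2KO replicate 1 there were 93 and 159, and without replicate 2 there were 24 and 43. Without St2KO_to_St2KO replicates 1 and 3 there were 14 and 27, and 8 and 22. Of the 115 genes themselves, 30 (without St2KO_to_St2KO replicate 3) to 105 (without WT_to_St2KO replicate 1) stayed called when 1 library was left out. All 115 kept their direction, which choosing them on these libraries favours.

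**Figure D1:**
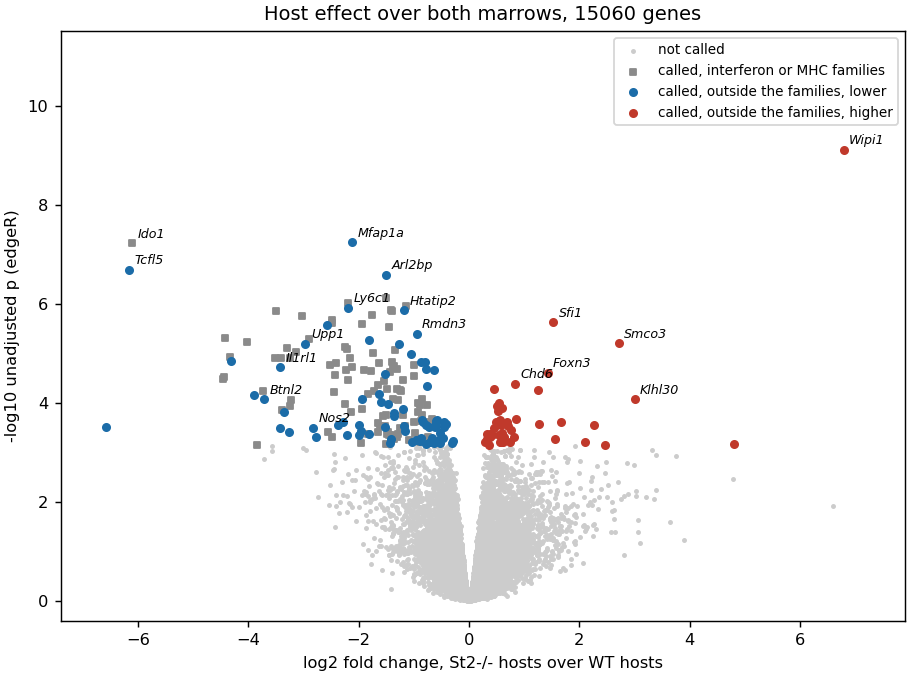
Log2 fold change of St2-/- over WT hosts (x axis) against -log10 of the unadjusted edgeR p (y axis) for the 15060 genes tested. Red and blue points are the 43 and 72 genes outside the interferon and MHC families that rose or fell, and grey squares are the 101 called genes of those families. Most red points lie within 1 log2 unit of 0, while many blue points reach far to the left. The leftmost, the predicted gene 2610305D13Rik, had 69 reads in WT hosts and 0 in St2-/- hosts, so its fitted fold change is no bound.

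Wipi1 gave the largest rise. It encodes a protein that binds phosphoinositides on forming autophagosomes, and lies at chr11:109573331-109611967 on the minus strand of GRCm38. The lowest, median and highest level was 0.0796, 0.134 and 0.686 CPM in WT hosts and 21.5, 26.4 and 30.2 CPM in St2-/- hosts. Every St2-/- host lay far above the highest WT host, and the 6 WT hosts together held 16 reads against 1922 in the St2-/- hosts. On the log2 scale it rose by 6.79 (SE 0.39, edgeR adjusted p = 1.18e-05). The rise was 7.70 (SE 0.52) with WT marrow and 6.20 (SE 0.46) with St2-/- marrow, and it was between 6.61 and 7.46 when any 1 library was left out. Of the 36 autophagy genes tested, Wipi1 was the only one called. Its paralogue Wipi2, named for that kinship, was at 0.04 and the list had a median of -0.01, with 20 members below 0. Atg4d, a protease that processes ATG8 proteins, had a log2 fold change of -0.38 (adjusted p = 0.0869), and the kinase gene Ulk2, which acts at the start of autophagy, had 0.40 (adjusted p = 0.107).

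Sfi1 and Smco3 also rose in every fit. Sfi1 encodes a centrin-binding protein of the centrosome (chr11:3131850-3193463, minus strand). Its lowest, median and highest level was 18.5, 32.2 and 37.5 CPM in WT hosts and 64.7, 92.4 and 110 CPM in St2-/- hosts, and it rose by 1.53 in log2 terms (SE 0.18, edgeR adjusted p = 0.00199). The mouse genome carries several Sfi1-like copies, so reads of this gene are uncertain. Smco3, a gene for a small membrane protein with a coiled coil (chr6:136829927-136835452, minus strand), was low throughout, at 0.0966, 0.206 and 0.514 CPM in WT hosts and 1.32, 1.61 and 2.4 CPM in St2-/- hosts. It rose by 2.72 (SE 0.35, adjusted p = 0.00341) from 18 to 126 reads. Smco3 overlaps a gene on the opposite strand, BC049715, and the strand setting of the counting is unknown.

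Other genes that rose at least 2-fold without overlap were Foxn3, Hspe1, Klhl30, Ptprv, Cux2, Gpr135 and Ttc18. Foxn3, a forkhead transcription factor gene, went from a median of 2.88 to 7.04 CPM (log2 fold change 1.43, SE 0.21, edgeR adjusted p = 0.00612). Hspe1 encodes the mitochondrial co-chaperonin HSP10 and was at 24.8 to 55.7 CPM in WT hosts and 62 to 99.3 CPM in St2-/- hosts (1.26, SE 0.20). It overlaps Hspd1 on the opposite strand and has processed pseudogenes, so its reads are uncertain. Klhl30, a kelch-like family gene, rose by 3.00 (SE 0.51, adjusted p = 0.0144) from a median of 0.301 to 2.85 CPM. Ptprv, a receptor tyrosine phosphatase gene, rose by 1.67 (SE 0.32), and Cux2, a homeobox transcription factor gene, by 2.27 (SE 0.45). Gpr135, an orphan receptor gene, and Ttc18 stayed below 3 CPM in every library and had adjusted p values of 0.0464 and 0.0497. Without 1 library Klhl30 was lost in 1 of 12 fits (adjusted p = 0.0551 without St2KO_to_WT replicate 2). Ptprv and Cux2 were each lost in 8 (highest adjusted p = 0.0773 and 0.0896, both without St2KO_to_WT replicate 2), and Gpr135 and Ttc18 in 11 (highest 0.123 and 0.121). The 30 smaller rises included genes for chromatin and transcription proteins, picked here after their values were seen. Chd6, a chromatin remodeller gene, went from a range of 49.3 to 75.8 CPM to one of 80.2 to 124 CPM (0.83, SE 0.13). Smad5, which relays bone morphogenetic protein signals, went from 81.1 to 114 CPM to 123 to 150 CPM (0.54, SE 0.09), Tet3, an enzyme of DNA demethylation, from 125 to 187 CPM to 189 to 236 CPM (0.56, SE 0.11), and Atrx, a chromatin remodeller gene, from 98.5 to 128 CPM to 138 to 187 CPM (0.49, SE 0.09).

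**Figure D2:**
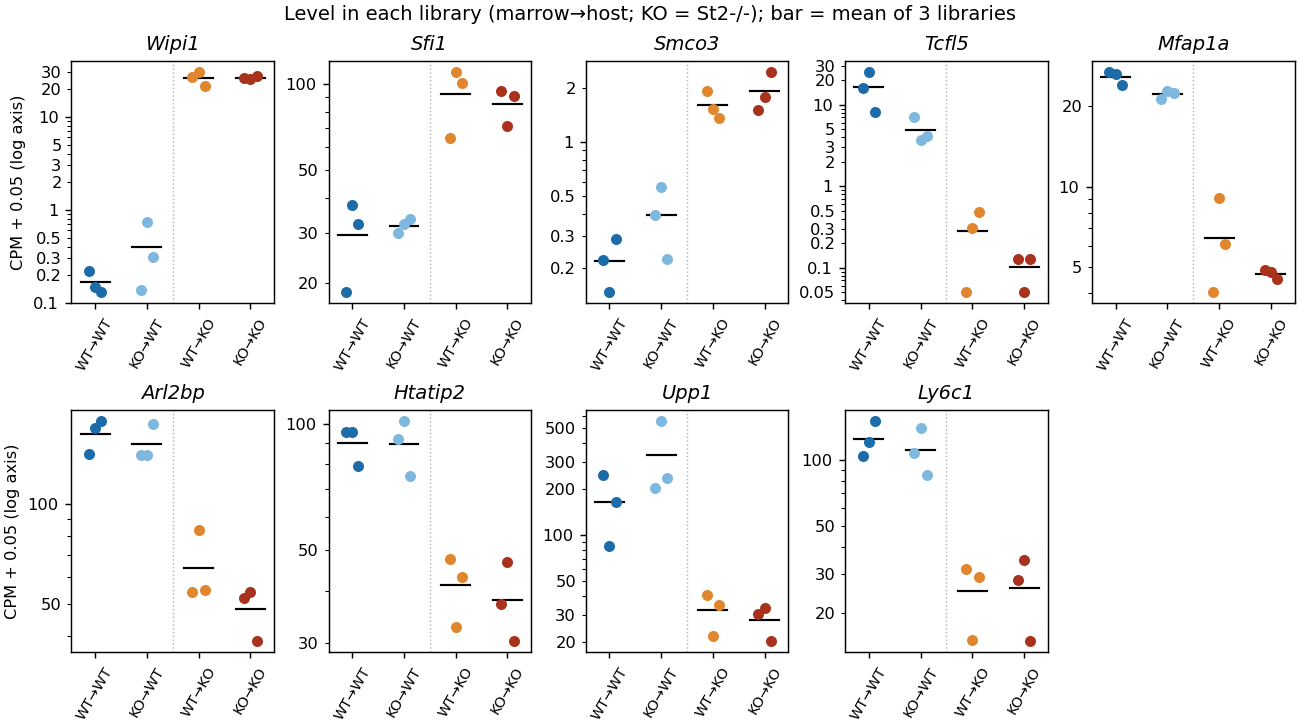
Level of 9 genes in each of the 12 libraries, as CPM plus 0.05 on a log axis, by marrow and host (KO is St2-/-), with a bar at the mean of 3 libraries. In each panel the 6 St2-/- hosts on the right of the dotted line lie wholly above (Wipi1, Sfi1, Smco3) or wholly below (the other 6 genes) the 6 WT hosts.

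Among genes that fell, Tcfl5, Mfap1a and Arl2bp had the smallest p outside the families. Tcfl5 encodes a basic helix-loop-helix transcription factor best known from male germ cells (chr2:180621956-180642708, minus strand). Its lowest, median and highest level was 3.69, 7.55 and 25.2 CPM in WT hosts and 0, 0.0769 and 0.439 CPM in St2-/- hosts. The St2-/- hosts held 10 reads against 721, and 2 of the 6 had none. This was a log2 fold change of -6.16 (SE 0.58, adjusted p = 0.000782 by edgeR). Tcfl5 overlaps Col9a3 on the opposite strand. Mfap1a, a component of the spliceosome (chr2:121491911-121506665, minus strand), was at 21.2, 23.3 and 26.8 CPM in WT hosts and at 3.98, 4.78 and 9.04 CPM in St2-/- hosts, and fell by 2.12 (SE 0.18, adjusted p = 0.000303). Its near-identical neighbour Mfap1b was low in both hosts (median 3.54 and 1.15 CPM) and fell by 1.52 (SE 0.23, adjusted p = 0.00647). Reads of this pair cannot be assigned with certainty. Arl2bp, a gene for a binding partner of the small GTPase ARL2 (chr8:94666600-94674425, plus strand), was at 141, 156 and 178 CPM in WT hosts and 38.3, 54.1 and 83.3 CPM in St2-/- hosts, and fell by 1.51 (SE 0.14, adjusted p = 0.000785).

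Metabolic genes were among the next falls. Upp1, uridine phosphorylase of pyrimidine salvage (chr11:9118103-9136170, plus strand), was at 84.4, 220 and 557 CPM in WT hosts and 20, 31.8 and 40.5 CPM in St2-/- hosts, and fell by 2.97 (SE 0.39, edgeR adjusted p = 0.00341). The WT hosts were widely spread, but the lowest was still above every St2-/- host. Htatip2, an oxidoreductase gene (chr7:49759115-49773975, plus strand), fell from a median of 93.6 to 40.1 CPM (-1.18, SE 0.13). Xdh, xanthine dehydrogenase of purine breakdown, fell from 192 to 69.9 CPM (-1.47, SE 0.26). Nampt, which makes the precursor of nicotinamide adenine dinucleotide, fell from 174 to 100.3 CPM (-0.79, SE 0.12) and was the 1 called of 15 tryptophan and NAD genes outside the families. Xdh was not called in 2 of the 12 fits that leave out 1 library (highest adjusted p = 0.0594, without St2KO_to_St2KO replicate 3). Upp1, Htatip2 and Nampt were called in all 12.

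Single genes known from the cell surface or from immune cells fell as well. Ly6c1, a surface protein of endothelium and some leukocytes (chr15:75044018-75048830, minus strand), was at 84.6, 113 and 149 CPM in WT hosts and 14.8, 28.6 and 34.7 CPM in St2-/- hosts (-2.19, SE 0.24, edgeR adjusted p = 0.00163). It was the 1 called of 21 endothelial genes, and the other 20 lay above 0, among them the lymphatic factor gene Prox1 (1.43, adjusted p = 0.0991) and Vwf, which encodes von Willebrand factor (0.76, adjusted p = 0.164). Btnl2, a butyrophilin-like gene, fell by 3.71 (SE 0.63) from a median of 4.94 to 0.457 CPM. It lies within 100 kb of a tested gene of the interferon or MHC families. Clec9a, a receptor of cross-presenting dendritic cells, fell by 1.36 (SE 0.26, adjusted p = 0.0249) from 4.44 to 1.8 CPM, and was lost in 6 of 12 fits without 1 library (highest adjusted p = 0.085, without St2KO_to_WT replicate 2). Xcr1, a chemokine receptor of the same cells, was at -1.20 (adjusted p = 0.145). Of 13 dendritic cell genes Clec9a was the 1 called, with 9 below 0 and 4 above (median -0.11). Without WT_to_St2KO replicate 1 the list's median was 0.01, with 7 above 0. Klrk1, the activating receptor NKG2D, fell by 1.96 (SE 0.40, adjusted p = 0.0361) from 183 to 52 reads, and was lost in 9 of 12 fits (highest 0.112, without St2KO_to_WT replicate 2). It was the 1 called of 28 T and NK cell genes, of which 26 lay below 0 (median -0.42). Cd8a and Cd8b1, the chains of CD8, had log2 fold changes of -2.44 (adjusted p = 0.0728) and -2.31 (adjusted p = 0.0989). In whole tumours, fewer cells of a type and less RNA per cell cannot be told apart.

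Of the remaining falls named by rule, Trafd1, a regulator of innate immune signalling, fell from a median of 129 to 63.6 CPM (-1.04, SE 0.14, edgeR adjusted p = 0.00437). Apol7a, of the apolipoprotein L family, fell from 20.6 to 5.11 CPM (-1.95, SE 0.33, adjusted p = 0.0144), and Spats2l from 135 to 36.7 CPM (-1.59, SE 0.28, adjusted p = 0.016). Spats2l was lost in 3 of 12 fits without 1 library (highest adjusted p = 0.0594, without St2KO_to_St2KO replicate 3).

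In the ST2 pathway itself, 2 of 15 genes fell and none rose. Il1rl1 (chr1:40429570-40465415, plus strand) was at 36.5, 128 and 275 CPM in WT hosts and at 7.3, 11.3 and 25 CPM in St2-/- hosts. It fell by 3.42 (SE 0.50, edgeR adjusted p = 0.00561), and the log2 fold change was -3.38 (SE 0.73) with WT marrow and -3.46 (SE 0.74) with St2-/- marrow. All St2-/- hosts kept reads of the gene, 926 in total, also with St2-/- marrow. Myd88, the adaptor, fell by 0.53 (SE 0.11, adjusted p = 0.0375), from 71.2 to 85.9 CPM in WT hosts to 41 to 64.5 CPM in St2-/- hosts. This call was lost in 9 of 12 fits without 1 library (highest adjusted p = 0.112, without St2KO_to_WT replicate 2). The kinase gene Irak2 was at -0.47 (adjusted p = 0.0752). Il33, the ligand, overlapped between hosts, with 13.3 to 184 CPM in WT hosts and 20.2 to 54.9 CPM in St2-/- hosts (-0.78, SE 0.45, adjusted p = 0.355). Across the 15 genes the median log2 fold change was -0.04.

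Of 28 inflammasome and cell death genes, Ripk3 and Bak1 fell and none rose, and of 32 TNF and NF-kB genes, Tnfrsf1a fell and none rose. Ripk3, the kinase of necroptosis, fell from 97.1 to 138 CPM to 48.9 to 74.5 CPM (-0.87, SE 0.12, edgeR adjusted p = 0.00505). Tnfrsf1a, the main receptor for tumour necrosis factor (TNF), fell from 147 to 205 CPM to 84.1 to 123 CPM (-0.80, SE 0.11, adjusted p = 0.00505). Both were called in all 12 fits that leave out 1 library, but not with reads outside genes per gene read as a covariate (adjusted p = 0.0715 and 0.0683). Bak1, a pore-forming protein of apoptosis, fell by 0.63 (adjusted p = 0.0471), and Gsdmd, the pore protein of pyroptosis, by 0.71 (adjusted p = 0.0464). These were lost in 10 of 12 fits (highest adjusted p = 0.137 and 0.136, both without St2KO_to_St2KO replicate 3). Of the inflammasome and cell death list 22 lay below 0 (median -0.38). Of the TNF and NF-kB list 28 lay below 0 (median -0.36), including Tnfsf13b, a B cell survival cytokine (-0.83, adjusted p = 0.0728), and Icam1, an adhesion molecule (-0.97, adjusted p = 0.0741). Over all 15060 genes the median was -0.0017 and 7558 lay below 0. Of the 6 gasdermin genes tested 1 was called and 5 lay above 0 (median 0.63), while the medians were 1.57 with WT marrow and -0.99 with St2-/- marrow. The gasdermin median was 0.15 without WT_to_WT replicate 2 and 0.24 without replicate 3, and -0.09 with 4 of 6 below 0 with reads outside genes as a covariate.

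Antimicrobial genes of the epithelium had the lowest median of the lists with more than 1 gene tested, at -1.13. Nos2, inducible nitric oxide synthase, was at 213, 322 and 572 CPM in WT hosts and 4.61, 56.8 and 96.2 CPM in St2-/- hosts and fell by 2.83 (SE 0.56, edgeR adjusted p = 0.0317). It was the 1 called of 23, and it was lost in 8 of 12 fits without 1 library (highest adjusted p = 0.0938, without St2KO_to_WT replicate 2). Duoxa2, the maturation factor of an epithelial oxidase, was at -1.67 (adjusted p = 0.0839), Reg3b, a lectin directed at bacteria, at -2.78 (adjusted p = 0.0868) and Saa2, an acute-phase protein gene, at -2.19 (adjusted p = 0.0888). Their hosts overlapped. Markers of differentiated epithelium lay below 0 beside this list, and their part in it was not tested. Of 18 goblet cell genes 17 lay below 0 (median -0.66) and of 23 colonocyte genes 18 did (median -0.56). Neither list had a call by edgeR. At an unadjusted p under 0.05, 1 goblet gene was higher, 10 colonocyte genes were lower and 1 higher. DESeq2 called 1 goblet gene higher, and 5 colonocyte genes lower and 1 higher, and limma-voom called 0 and 1. Of the 14845 genes tested outside the families, DESeq2 called 489 higher and 513 lower, and limma-voom 93 and 174. Among 26 complement genes C2 fell by 2.00 (SE 0.39, adjusted p = 0.0307) from a median of 45.6 to 12.8 CPM, and was lost in 4 of 12 fits (highest 0.0915, without St2KO_to_St2KO replicate 3). Cfb, its counterpart in the alternative pathway, was at -1.17 (adjusted p = 0.0867) without overlap between hosts, and the list had a median of -0.68 with 21 genes below 0.

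In metabolism, Pfkp, a phosphofructokinase gene, fell by 0.97 (SE 0.21, edgeR adjusted p = 0.045), the 1 called of 25 glycolysis and hypoxia genes. The hexokinase genes Hk1 and Hk2 were at -0.81 (adjusted p = 0.0811) and -1.34 (adjusted p = 0.0868). Of this list 20 lay below 0 (median -0.35). Sqle, squalene epoxidase of cholesterol synthesis, fell by 0.59 (SE 0.11, adjusted p = 0.029), the 1 called of 25 cholesterol and lipid genes, with 23 below 0. Pfkp was lost in 9 and Sqle in 8 of the 12 fits without 1 library (highest 0.132 and 0.0875, without St2KO_to_St2KO replicate 3 and St2KO_to_WT replicate 2).

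Oxidative phosphorylation genes, which encode subunits of the respiratory chain and ATP synthase, had no call, yet all 28 lay below 0, with a median of -0.35, and 24 had an unadjusted p under 0.05. Examples are Cox5a (-0.52, edgeR adjusted p = 0.0529), Atp5o (-0.42, adjusted p = 0.0556) and Ndufb8 (-0.45, adjusted p = 0.0652). CPM of each of these overlapped between hosts, and Atp5o shares its position with other annotated genes. DESeq2 called 16 of the 28 lower and limma-voom 5, against 513 and 174 of all 14845 genes tested outside the families. The median lay between -0.39 and -0.29 in all 23 alternatives and all 28 stayed below 0 in each, also with reads outside genes as a covariate. These alternatives reuse the same libraries, so they are no separate support. The mean log2 CPM of the list overlapped between hosts, with a lowest value of 7.60 in WT hosts and a highest of 7.64 in St2-/- hosts. Of 22 genes of the unfolded protein response edgeR called none (11 had an unadjusted p under 0.05, DESeq2 called 3 lower and limma-voom 1) and 18 lay below 0, with the chaperone gene Calr at -0.54 (adjusted p = 0.0529). Proliferation genes had no call by edgeR, DESeq2 or limma-voom. By edgeR 5 of the 30 had an unadjusted p under 0.05, a smaller share than the 2985 of all 15060 genes. Of the 30, 28 lay below 0 with a median of -0.25, which was -0.03 with reads outside genes as a covariate.

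Other lists lay above 0, again with no member called higher. Of 27 stem cell and Wnt genes 21 lay above 0 (median 0.66) and 11 had an unadjusted p under 0.05, and DESeq2 called 2 higher and limma-voom 0. Sox9, a factor of crypt progenitors, was at 0.48 (edgeR adjusted p = 0.104), Znrf3, which removes Wnt receptors, at 0.74 (adjusted p = 0.141), the stem cell factor gene Ascl2 at 0.72 (adjusted p = 0.158) and Axin2, a Wnt target, at 0.73 (adjusted p = 0.169). The median of the list lay between 0.48 and 0.78 in the alternatives. Of 16 mast cell genes 15 lay above 0, with a median of 1.53, and the exception was Il1rl1. Tpsab1, a mast cell tryptase, was at 0.171 to 2.95 CPM in WT hosts and 3.24 to 90.5 CPM in St2-/- hosts (log2 fold change 3.76, adjusted p = 0.0627), and the protease gene Mcpt4 at 2.20 (adjusted p = 0.116). DESeq2 called 3 of the 16 higher and limma-voom 1, against 489 and 93 of all 14845 genes tested outside the families. The list's median was 2.19 with WT marrow and 0.76 with St2-/- marrow, and 0.92 over both marrows without WT_to_St2KO replicate 2, the library with the highest levels. The 4 mast cell markers summed to 70.5 to 231 CPM in WT hosts and 170 to 1819 CPM in St2-/- hosts.

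**Figure D3:**
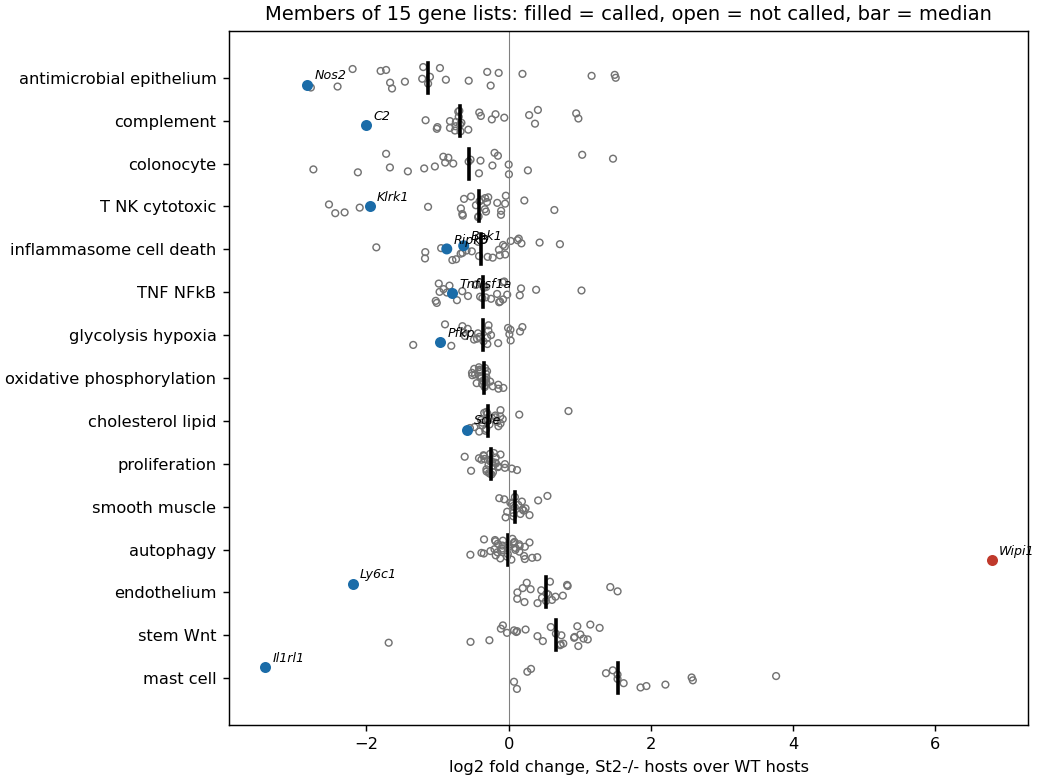
Log2 fold change of St2-/- over WT hosts for each tested member of 15 gene lists. Filled points with a name were called (red higher, blue lower), open points were not, and the black bar is the list's median, which runs from -1.13 for antimicrobial genes to 1.53 for mast cell genes.

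Across all 41 lists, 14 held a call. The 1 list with a gene that rose was autophagy, through Wipi1, and 13 lists held genes that fell. Of the 115 calls outside the families, 100 belong to no list. The other 15 came from 822 tested entries, in which a gene can appear in more than 1 list. Of all 14845 genes tested outside the families, 0.775% were called. Smooth muscle genes had a median of 0.09, with 0 of 20 called by edgeR, DESeq2 or limma-voom, and its sign was not stable. The median was -0.28 by limma-voom, lay between -0.38 (without WT_to_St2KO replicate 2) and 0.73 (without St2KO_to_St2KO replicate 2) when 1 library was left out, and was below 0 without any 1 of the 3 WT_to_WT libraries. It was -1.23 without WT_to_St2KO replicates 2 and 3 together and -1.50, with 19 of 20 below 0, with reads outside genes as a covariate. The 2 marrows gave opposite signs, at a median of 2.32 with WT marrow and -1.96 with St2-/- marrow. None of the smooth muscle genes had an unadjusted p under 0.05 in the average.

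The effect of the host was compared between the 2 marrows. No gene was called for the interaction of host and marrow by edgeR (0% of 15060, lowest adjusted p = 0.119), while 1144 genes had an unadjusted p under 0.05, DESeq2 called 93 and limma-voom 4. All 115 calls had the same direction and an unadjusted p under 0.05 with each marrow, which the average over both favours. Among them 2 had an unadjusted p under 0.05 for the interaction. The comparisons within each marrow share no library. Both came from the same fit, however, which shares each gene's variance estimate, so their p-values are not independent. Outside the families, 15 genes were called with WT marrow, of which 12 had the same direction with St2-/- marrow and 8 also had an unadjusted p under 0.05 there. The 7 called with St2-/- marrow all had the same direction and an unadjusted p under 0.05 with WT marrow. Of all 14845 genes tested outside the families, 60.2% had the same direction with both marrows. The same direction with an unadjusted p under 0.05 was met by 8.6% with St2-/- marrow and by 10.8% with WT marrow. Wipi1, Mfap1a, Tcfl5 and Arl2bp were called in both. Over all genes, 0.159% and 0.0598% were called with WT and with St2-/- marrow.

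**Figure D4:**
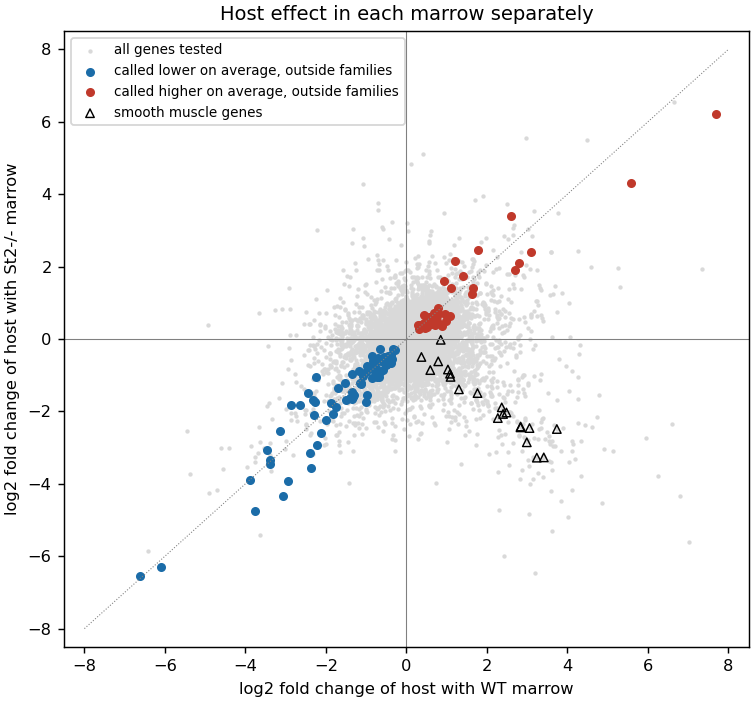
Host effect with WT marrow (x axis) against host effect with St2-/- marrow (y axis), both as log2 fold change of St2-/- over WT hosts. Red and blue points are the 115 genes called on average outside the families and lie along the dotted line of equal effects, while smooth muscle genes (triangles) lie mostly in the lower right, higher in St2-/- hosts with WT marrow and lower with St2-/- marrow.

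Genes that rose were long. The median length of the union of exons was 7759 bases for 42 of the 43 genes that rose, 3032 bases for 70 of the 72 that fell and 4251 bases over all genes with a known length. When all genes were split by length into 5 groups of like size, 25 of the 42 genes that rose and 6 of the 70 that fell were in the longest group. The median log2 fold change over all genes went from -0.05 in the shortest group to 0.09 in the longest, and the longest group was at 0.13 with WT marrow and at 0.07 with St2-/- marrow. Among 353 tested genes whose symbols mark zinc finger proteins, a set picked after their values were seen, 7 rose and none fell by edgeR, and 294 lay above 0 with a median of 0.24 (DESeq2 called 49 higher and 1 lower, limma-voom 13 higher and 0 lower). Of all 14845 genes tested outside the families, DESeq2 called 489 higher and limma-voom 93. With reads outside genes per gene read as a covariate, the zinc finger median was 0.17, and 7 genes rose and 14 fell outside the families, 19 of them among the 115. Of the 38 called genes that the naming rules select, 14 were called with that covariate, among them Wipi1, Sfi1, Smco3, Tcfl5, Mfap1a, Arl2bp, Ly6c1, Htatip2 and Upp1. The other 24 were not (adjusted p from 0.0528 to 0.255). These included Il1rl1 (-3.42, adjusted p = 0.0856), B2m, Foxn3, Trafd1, Mfap1b and Nampt.

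**Figure D5:**
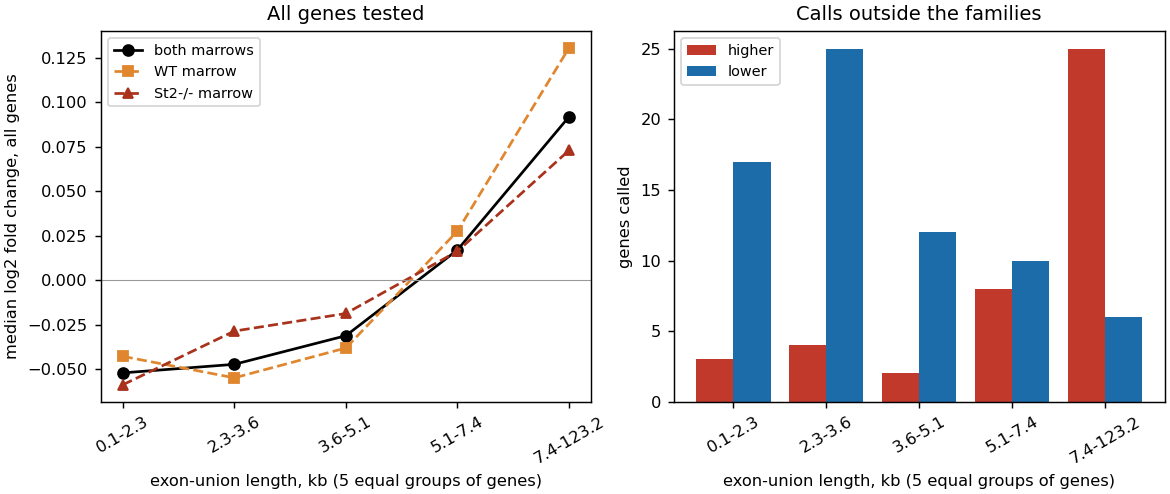
Left, median log2 fold change of St2-/- over WT hosts in 5 groups of genes by exon-union length (kb), with both marrows and with each. Right, number of genes called outside the families in each group. The medians go from -0.05 to 0.09, and 25 red calls are in the longest group.

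Position in the genome was examined for the targeted gene and for Mfap1a, which had the smallest p among the falls outside the families. Within 5 Mb either side of Il1rl1 none of the 64 other genes tested was called by edgeR (lowest adjusted p = 0.0922). DESeq2 called 1 and limma-voom 0, and log2 fold changes ran from -0.99 to 0.95. By edgeR 9 of the 64 had an unadjusted p under 0.05, a smaller share than the 2985 of all 15060 genes. Within 3 Mb either side of Mfap1a, a window chosen after its values were seen, 6 of 93 were called, against 1.43% of all genes tested. They were Mfap1a, Mfap1b, B2m, Rmdn3, Gchfr and Trp53bp1. Mfap1a counts by the choice of window, and reads of Mfap1a and Mfap1b cannot be assigned with certainty. Rmdn3, a regulator of microtubules and of calcium exchange at mitochondria, fell by 0.95 (SE 0.12, adjusted p = 0.00278) from 60.4 to 90.4 CPM to 34 to 47.4 CPM. Trp53bp1, a DNA damage response gene, was the 1 of the 6 that rose. Of the 70 genes with a position that fell outside the families, 14, or 20%, lay within 100 kb of a tested gene of the interferon or MHC families. This share was 4.76% for the genes that rose and 3.5% for all tested genes outside the families. Of the 14, 7 are predicted genes, among them Gm12185 and Gm5431 beside Tgtp1 and Irgm1, Gm4841 and F830016B08Rik beside Gm4951, and Gm11127 beside H2-T23. Without predicted genes the share was 7 of 61 (11.5%) for the genes that fell, against 5% for those that rose and 3.42% for all tested.

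Promoters were searched for 2 motifs known from interferon-responsive genes. The window of 250 bases before to 50 after each start came from RefSeq on GRCm38.p6, and 59 of the 72 genes that fell and 34 of the 43 that rose had one. The interferon-stimulated response element was searched as GAAANNGAAA and the gamma-activated site as TTCNNNGAA, both on either strand, and they may overlap. The first was present in 6 of 59 genes that fell (10.2%), in 0 of 34 that rose, in 37.8% of the family genes that fell and in 3.79% of 11830 tested genes with a window. The second was present in 11.9%, 11.8%, 24.3% and 8.38%. Without predicted genes the first was present in 2 of 50 genes that fell (4%), close to the 3.79% of all tested genes, and the second in 10% against 8.43%. Stretches of 4 genes that fell are shown, since they carry the first motif upstream of the start, with the motif in capitals, read on the gene's own strand, which is minus for all 4. They are Myd88 at chr9:119340024-119340083 and 3 predicted genes chosen after their values were seen, Gm12185 at chr11:48927223-48927282, Gm11127 at chr17:36058405-36058464 and Gm14446 at chr19:34602038-34602097. Only their symbols place these 3 outside the families, and Gm12185 and Gm11127 lie beside family genes.
Myd88: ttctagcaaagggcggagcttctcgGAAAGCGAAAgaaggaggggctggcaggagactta
Gm12185: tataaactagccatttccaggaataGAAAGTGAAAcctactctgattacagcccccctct
Gm11127: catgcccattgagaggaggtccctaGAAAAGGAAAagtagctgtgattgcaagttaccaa
Gm14446: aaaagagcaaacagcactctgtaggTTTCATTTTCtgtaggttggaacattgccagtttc
In Myd88 the motif ends 31 bases before the start and a gamma-activated site overlaps it. In Gm14446 the capitals are the motif of the other strand. Gm12185 fell by 3.89 (SE 0.65) from a median of 8.76 to 0.922 CPM, the largest change of the 4, Gm14446 fell by 2.37 (SE 0.47) and Gm11127 by 1.64 (SE 0.27). Near-identical relatives exist for the predicted genes, so their reads are uncertain. Among the genes that rose, Wipi1 held a gamma-activated site, shown here because the gene had the largest rise, at chr11:109611514-109611572 on the minus strand.
Wipi1: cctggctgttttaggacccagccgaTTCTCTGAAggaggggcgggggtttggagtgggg
A match describes these letters only.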

How the data were processed

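The report compares RNA-seq counts of 12 AOM-induced colon tumours, grouped by the labels. Per the labels' protocols, TruSeq libraries of tumour RNA were sequenced as single-end reads of 50 bases. TopHat and Bowtie2 and the build GRCm38 (mm10) are named in the submitters' processing notes. For the counting tool, annotation and strand setting, nothing is stated in the sources used here. Besides Smco3, Hspe1 and Tcfl5, a gene on the opposite strand overlaps B2m, Myd88, Bak1, Atg4d, C2, Duoxa2, Pfkp, Hk1 and Atp5o. Sfi1, Clec9a, Cfb and Nampt overlap a gene on the same strand, as do Myd88 and Atp5o. Reads of all these genes are uncertain to that extent. The authors deposited raw read counts for 24062 genes. The table's 5 summary entries name no gene, made up 49.8% to 59.6% of a library, and entered neither library sizes nor tests.

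Tests were run with edgeR 4.0.16 in R 4.3.3. Genes passing filterByExpr (minimum count 10) numbered 15060, and 9002 were removed. TMM factors lay between 0.899 and 1.12. The quasi-likelihood model had terms for host and marrow, with robust estimation. Effects within each marrow and their interaction came from a model with 4 group coefficients. P-values were two-sided and adjusted by Benjamini-Hochberg over all genes tested, and calls needed an adjusted value under 0.05. CPM used TMM-scaled library sizes, errors of fold changes are SE and those of CPM are not shown beside ranges over 6 libraries. Gene positions and lengths came from GENCODE M21 on GRCm38, with a length for 14375 genes. Pairs of replicates differed by more than sampling noise.

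The comparison, the families, the 41 lists (918 entries, 822 tested) and the rules were chosen with earlier results of these data known. Named genes were up to 15 higher and 15 lower with the smallest p among calls outside the families whose log2 fold change reached 1 in size, with no overlap of CPM between hosts, leaving out predicted and sex-linked genes. Added were Il1rl1, Il33, Ido1, B2m, leading members and called genes of the lists described. A few genes that met these rules are not reported here. Alternatives were DESeq2 1.42.0 (size factors or Wald test), limma-voom (limma 3.58.1) with quality weights, other filters, 4 group coefficients, a replicate block, weeks after AOM or smooth muscle level as a covariate, and libraries left out. Reads outside genes as a covariate, and shares without predicted genes, were added after seeing the data. Figures were drawn with Python 3.11.15.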

Additional observations from a re-analysis of the deposited data

Results flagged for a closer look

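Among 132 sets of 6 libraries (66 named genes in each host genotype), 18 had 1 library far from the other 5, by the gap to its nearest neighbour over the whole range. For independent values of 1 normal distribution, chance flags about 1 in 20 such sets. These sets hold untransformed CPM of 2 marrow groups, so the rate by chance here is not known. WT_to_St2KO replicate 2 and St2KO_to_WT replicate 2 each accounted for 5 of the 18.

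Among WT hosts, St2KO_to_WT replicate 2 was highest for Wipi1 (0.686 CPM, others 0.0796 to 0.26), Upp1 (557 CPM, others 84.4 to 246), Btnl2 (16.5 CPM, others 0.966 to 6.35), Gsdmd (416 CPM, others 357 to 368) and Tnfsf13b (21.6 CPM, others 10.1 to 14.2). Il33 was highest in St2KO_to_WT replicate 1 (184 CPM, others 13.3 to 73.2), and Hspe1 in WT_to_WT replicate 2 (55.7 CPM, others 24.8 to 31.8).

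Among St2-/- hosts, WT_to_St2KO replicate 2 was highest for Il1rl1 (25 CPM, others 7.3 to 13.4), Mcpt4 (46.3 CPM, others 2.37 to 12.3), Arl2bp (83.3 CPM, others 38.3 to 54.8) and Ttc18 (2.78 CPM, others 0.423 to 0.95), and lowest for Cfb (40.9 CPM, others 119 to 160). WT_to_St2KO replicate 1 was highest for Reg3b (304 CPM, others 13.6 to 92.7), Saa2 (1.1 CPM, others 0.0791 to 0.264) and Hk2 (486 CPM, others 79 to 214). St2KO_to_St2KO replicate 2 was highest for Ido1 (9.42 CPM, others 0.696 to 3.59), Cd8a (6.09 CPM, others 0.309 to 1.91) and Cd8b1 (1.9 CPM, others 0 to 0.703).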

How the results depend on the processing

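The 115 calls outside the families kept their direction in every alternative that tested them, which choosing them on the same libraries favours. The number of calls did not stay. Calls between hosts, and those outside the families that rose and fell, numbered 1150, 489 and 513 by the DESeq2 Wald test, where 48.8% of the calls outside the families rose against 37.4%, and 381, 93 and 174 by limma-voom. They numbered 45, 7 and 14 with reads outside genes as a covariate, and 57, 6 and 21 without WT_to_St2KO replicates 2 and 3 together. With smooth muscle level as a covariate 87 rose and 117 fell, and with weeks after AOM 26 rose and 45 fell. Leaving out 1 library gave 89 to 351 calls, 8 to 93 that rose and 22 to 159 that fell. With DESeq2 size factors, either other filter or 4 group coefficients, these counts stayed within 1.5 times.

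Within WT marrow 24 genes were called, and 746 by DESeq2, 314 by limma-voom, 4 with smooth muscle level, 5 with weeks, 1 with reads outside genes, 3 without the 2 libraries and 1 to 159 without 1 library. Within St2-/- marrow 9 were called, and 262 by DESeq2, 2004 by limma-voom, 20 with smooth muscle level, 4 with weeks, 3 with reads outside genes and 1 to 17 without 1 library. For the interaction DESeq2 called 93, limma-voom 4 and the fit without the 2 libraries 1, against 0, and 0 genes were called in every fit without 1 library.

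Of 38 named genes that were called, 22 were called in all 12 fits without 1 library, and the other 16 were lost in 1 to 11 of them (highest adjusted p = 0.137). Whether replicate numbers pair the samples was not settled. Of 18 same-number pairs, 5 had a correlation over 0.1 (-0.44 to 0.31), but a low correlation between tumours cannot show that samples were handled apart. With the replicate block 173 genes were called between hosts, 38 rose and 61 fell outside the families, and 13 and 1 were called within WT and St2-/- marrow. Genes under about 1 CPM, such as Ttc18 (12 and 74 reads) and Gpr135 (20 and 90), rest on few reads.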
